A study of Zea mays subsp. mays with 2 samples.

Results

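Long loci were taken as the deposited intervals on chromosomes 1 to 10 that spanned 20 kb or more from their listed start to their listed end and whose coordinate stood on a row of its own. They numbered 631 of 45157 rows, or 1.40%. The choice used position only and no expression value. Another 646 rows of 20 kb or more stood at 276 coordinates shared by several rows, and 2 such rows lay outside the 10 chromosomes. These were not members.

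The span of a plant gene covers its exons and its introns. In maize, long genes usually owe their length to introns, which often hold transposable elements, while the spliced messenger RNA stays far shorter than the gene. The endosperm stores starch and protein for the embryo, and during kernel filling a small set of compact storage-protein genes dominates its messenger RNA. In the literature, Dek2 is a pentatricopeptide repeat protein, one of a family of organelle RNA-binding proteins, and is needed for splicing in mitochondria. The deposited tables give no exons, gene names or strands, so long loci are described here by position, span and level.

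One sample is labelled dek2 mutant and the other wild type (WT). Both are labelled as endosperm 15 days after pollination, with kernel as the source. The labels name no dek2 allele, inbred background or number of kernels for either. The series' design text speaks of triplicates, but each genotype has 1 sample and 1 table, so n = 1 for each and no replicate error could be computed. No difference below carries a p-value. Tissue markers and the dek2 transcript itself could not be looked up, because no row is paired with a gene name.

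Expression was given as FPKM, which scales the fragments of a transcript by its length and by the mapped total. The sum over all rows was 1073590 FPKM for dek2 and 1139650 FPKM for WT. The value 1e-05 stood in 3690 rows in dek2 and 6118 in WT and is read as no value. The median ratio of dek2 to WT was 1.503 over 22250 rows that reached 1 FPKM in both libraries, or 0.59 on the log2 scale. The dek2 values were divided by this factor before any ratio was taken. To take log2 ratios, 1 FPKM, the pseudocount, was added to the scaled dek2 value and to the WT value, which understates the change of low loci. A locus at 1 FPKM or more in at least 1 library, on the deposited values, is called expressed. An expressed locus is called higher or lower in dek2 when its log2 ratio is at least 1 in size, that is, at least 2-fold, a limit on size with no test behind it. In bulk endosperm, fewer cells of a type and less RNA per cell cannot be told apart.

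Most long loci were only moderately longer than the limit. The spans ranged from 20.02 kb to 166.7 kb with a median of 27.8 kb, and the middle 50% lay between 22.9 and 38.5 kb. There were 369 loci of 20 to 30 kb, 172 of 30 to 50 kb, 77 of 50 to 100 kb and 13 of 100 kb or more. The limit of 20 kb fell inside a continuous range. The members closest to it spanned 20019 bp and 20028 bp and stood at 13.0 and 10.2 FPKM in dek2 where WT had 8.57 and 4.84 FPKM. The rows just outside spanned 19987 bp and 19951 bp and stood at 30.8 and 13.5 FPKM in dek2 where WT had 16.0 and 4.20 FPKM. None of these 4 reached 2-fold on the log2 ratio, the largest being 0.94 at the last. No long locus overlapped another listed coordinate, and among the 39952 distinct coordinates of the 10 chromosomes 0 neighbouring pairs overlapped and 5 touched. No other listed locus was thus nested inside a long one. Since no listed coordinates overlapped anywhere, this is a trait of the whole list and not of long loci. Whether an interval merges several genes is not known here.

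Long loci were expressed more often than the average row but were seldom abundant. In dek2, 413 of 631 (65.5%) had 1 FPKM or more after scaling, and 433 (68.6%) had it as deposited. In WT, 409 (64.8%) did. Over all rows these shares were 53.9% and 58.7% in dek2 and 53.7% in WT. The median long locus had 5.38 FPKM in dek2 and 3.34 FPKM in WT, against 2.04 and 1.34 FPKM over all rows. These levels lay above those of compact loci of 300 to 1500 bp, with medians of 0.601 FPKM in dek2 and 0.416 FPKM in WT. They lay below those of loci of 5 to 20 kb, with 7.50 FPKM in dek2 and 4.78 FPKM in WT. At 100 FPKM or more there were 10 long loci in dek2 (1.58%) and 9 in WT (1.43%), against 3.78% and 2.33% of all rows. The shares in dek2 and WT were 3.24% and 1.69% for loci of 5 to 20 kb, and 4.42% and 2.47% for loci of 1.5 to 5 kb. For compact loci they were 1.89% and 1.54%, so low shares were not particular to long loci. All long loci together held 0.878% of the FPKM of dek2 and 0.770% of that of WT, below their 1.40% share of the rows.

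Most long loci were either expressed in both genotypes or low in both. Of the 631, 396 had 1 FPKM or more in both libraries, 37 in dek2 only, 13 in WT only, and 185 were below 1 FPKM in both. Of those 185, 91 had a value in both. Across all 631 long loci the rank correlation between the libraries was 0.93. With a value in both libraries it was 0.92 over 534 long loci, 0.93 over 6128 loci of 5 to 20 kb, 0.90 over 13298 loci of 1.5 to 5 kb and 0.79 over 6868 compact loci. These correlations run across loci within 1 pair of libraries; the loci of a library share its depth and are no replicates.

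**Figure D1:**
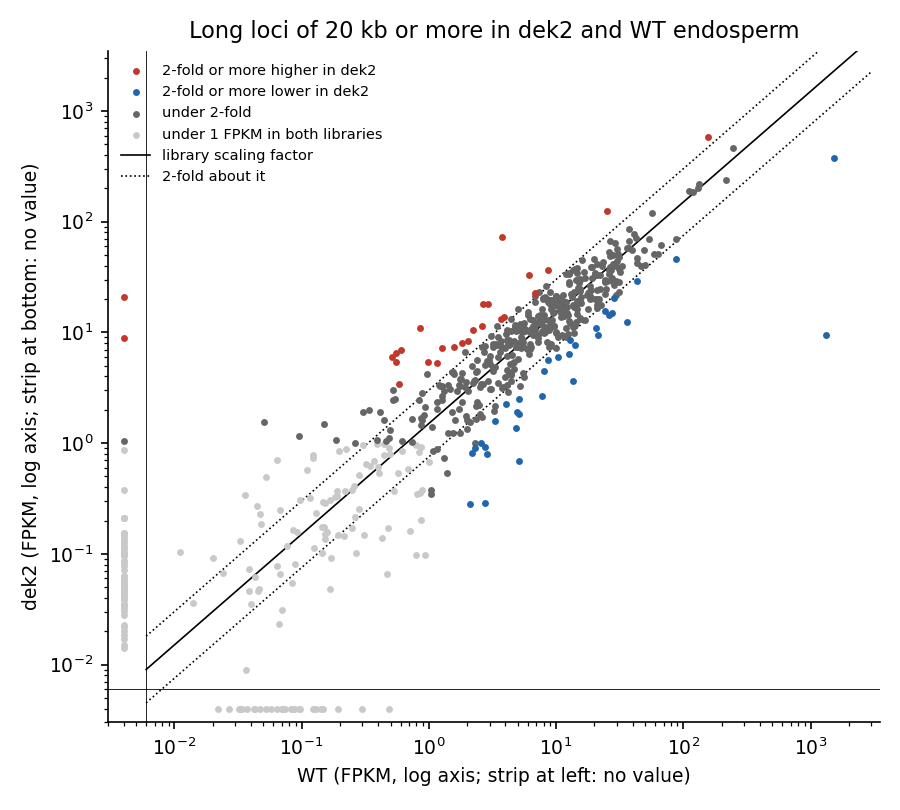
FPKM of each of the 631 long loci in dek2 (vertical, log axis) against WT (horizontal, log axis), with loci without a value drawn in the strips at the left and bottom. The solid line marks the scaling factor of 1.503 and the dotted lines 2-fold about it; points near 1 FPKM can lie beyond a dotted line without being called because of the pseudocount. Most points follow the solid line, with a wider spread below 1 FPKM, and the 2 loci furthest to the right, at 1316 and 1516 FPKM in WT, lie below the lower dotted line.

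Longer members were mostly at lower levels. For loci of 20 to 30, 30 to 50 and 50 to 100 kb the medians were 7.93, 4.45 and 0.790 FPKM in dek2, and 4.66, 3.034 and 0.711 FPKM in WT. The 13 loci of 100 kb or more had medians of 1.80 FPKM in dek2 and 0.478 FPKM in WT. The share of expressed loci was 75.3%, 71.5%, 49.4% and 53.8% in the 4 classes. The share with no value in WT was 8.40%, 13.4%, 16.9% and 23.1%, and in dek2 it was 3.25%, 2.33%, 11.7% and 15.4%. The rank correlation of span with FPKM across the 631 loci was weak, at -0.19 in dek2 and -0.17 in WT. Once only expressed loci were kept, the medians of the 4 classes were closer, between 7.35 and 11.9 FPKM in dek2 and between 4.37 and 7.98 FPKM in WT. Spans do not give the transcript length, for which FPKM is already scaled.

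**Figure D2:**
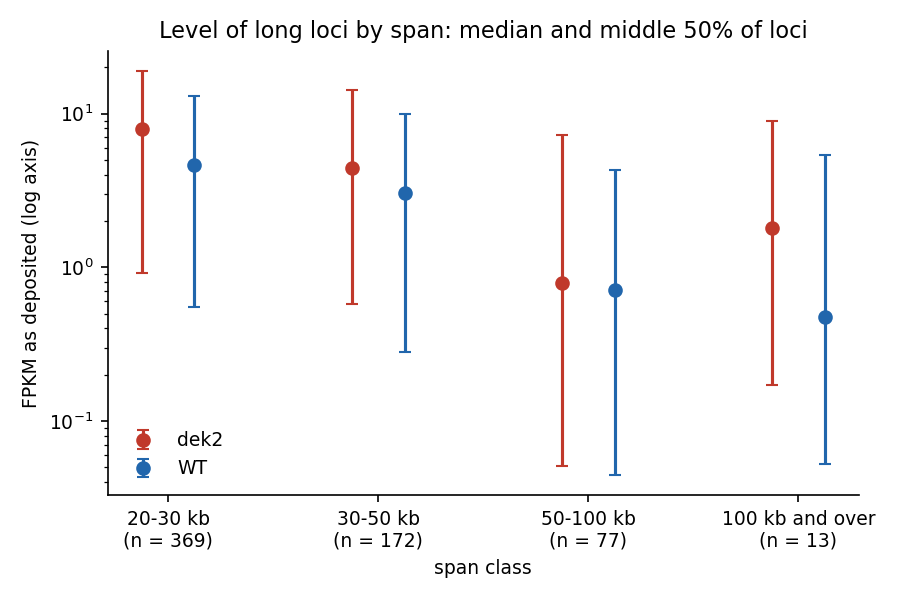
Deposited FPKM (log axis) of long loci in 4 span classes, dek2 in red to the left of WT in blue; points are medians over loci and bars the middle 50% of loci, not an error over samples. Medians are 7.93 FPKM in dek2 and 4.66 FPKM in WT at 20 to 30 kb, and 0.790 and 0.711 FPKM at 50 to 100 kb, with wide overlap between classes.

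Few long loci differed between dek2 and WT by 2-fold. Of the 446 expressed long loci, 26 (5.83%) were higher in dek2, where 13.2% of all 28476 expressed rows were. Lower in dek2 were 33 (7.40%), against 12.0% of all expressed rows. In either direction 59 (13.2%) were past 2-fold, against 25.2% of all expressed rows, and 8 (1.79%) were past 4-fold, against 6.18%. Another 289 (64.8%) stayed within 1.5-fold, against 51.1%. The median log2 ratio of the expressed long loci was 0.05, beside 0.07 over all expressed rows, and their middle 50% lay between -0.44 and 0.41. A value in both libraries and at least 10 FPKM in one of them was found for 252 long loci, of which 13 (5.16%) were higher and 16 (6.35%) lower. Of the 13201 rows that met the same conditions, 14.7% were higher and 10.8% lower. The split between directions depends on the scaling: 44.1% of the called long loci were higher in dek2 with it and 87.9% on the deposited values, where 94 were higher and 13 lower. On the deposited values the median over all expressed rows was 0.56 and that of the long loci 0.54.

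The small share past 2-fold was not particular to loci of 20 kb or more. Loci of 5 to 20 kb had 14.4% past 2-fold (746 of 5174 expressed), loci of 1.5 to 5 kb 21.0% and compact loci 35.7%. Rows of 20 kb or more at shared coordinates had 23.4%. The groups also differed in level, with no steady order by span. Expressed long loci had medians of 10.7 FPKM in dek2 and 7.05 FPKM in WT, loci of 5 to 20 kb had 12.0 and 8.09 FPKM, and compact loci had 3.77 and 2.58 FPKM. The difference from compact loci was also present at like FPKM. Levels matched on FPKM need not be matched in fragments, because FPKM is scaled by length. Fragment numbers are not known here, and their part in the difference was not tested. Between 10 and 100 FPKM, by the mean of both scaled libraries, 14 of 172 long loci (8.14%) were past 2-fold, against 280 of 2159 loci of 5 to 20 kb (13.0%) and 410 of 986 compact loci (41.6%). In that class loci of 1.5 to 5 kb had 21.1% and all expressed rows 23.1%. Between 1 and 10 FPKM, 42 of 238 long loci (17.6%) were past 2-fold, against 15.4% of loci of 5 to 20 kb and 37.3% of compact loci. Here loci of 1.5 to 5 kb had 22.0% and all expressed rows 26.5%. Long loci thus had the smaller share in one class and the larger share in the other when set beside loci of 5 to 20 kb, and no difference between these groups was tested. Of the 9 long loci above 100 FPKM, 2 were lower and 1 was higher. Of all rows at that level, 18.3% were lower and 18.0% higher, so these few loci show nothing particular.

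**Figure D3:**
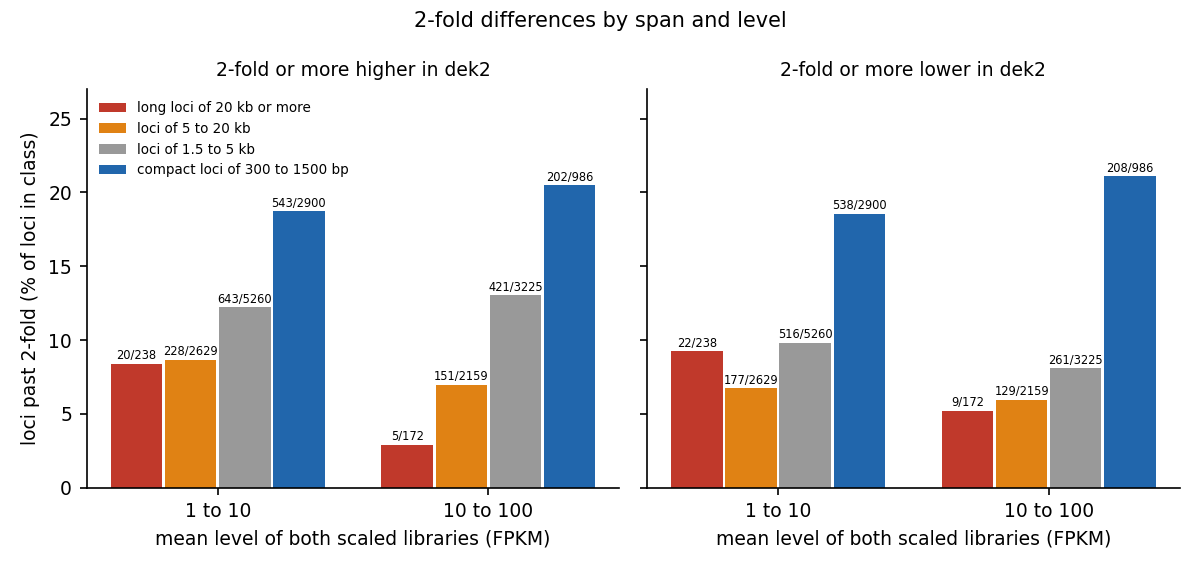
Share of loci past 2-fold (bars start at 0), higher in dek2 in the left panel and lower in the right, in 2 classes of mean level; numbers above bars are loci past 2-fold over loci in the class. Long loci are the left bar of each group, with 20 of 238 higher and 22 of 238 lower between 1 and 10 FPKM, and the compact loci have the tallest bar in each group.

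Within the long loci, the shares past 2-fold were close in the first 3 span classes. They were 12.6% at 20 to 30 kb (35 of 278 expressed), 13.8% at 30 to 50 kb (17 of 123) and 13.2% at 50 to 100 kb (5 of 38), with 2 of 7 at 100 kb or more. Over the 446 expressed loci the rank correlation of span was -0.03 with the log2 ratio and 0.07 with its size. Both lowest ratios, however, were at loci between 47 and 50 kb.

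**Figure D4:**
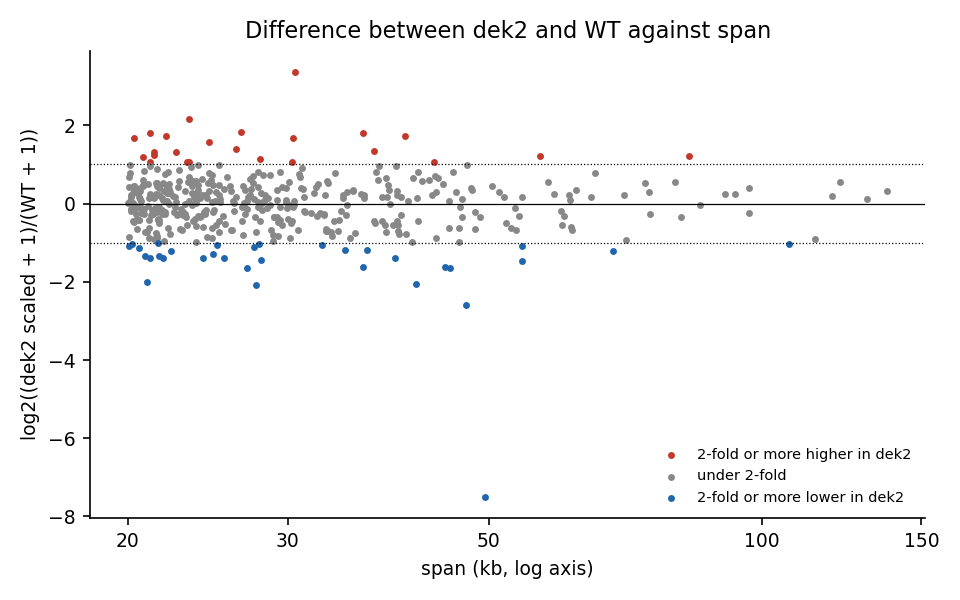
Log2 ratio of dek2 over WT after scaling (vertical) against span (horizontal, log axis, kb) for the 443 expressed long loci with a value in both libraries; dotted lines mark 2-fold. Points lie on both sides of 0 along most of the axis, and the lowest, at -7.49, has a span of 49.6 kb.

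The lowest log2 ratios, which include the pseudocount, were at the 2 long loci that were most abundant in WT. Without it some low loci stood further down than the second of these, such as one of 0.288 FPKM in dek2 and 2.74 FPKM in WT on chromosome 4, 14.3-fold lower after scaling and chosen after its values were seen. The locus on chromosome 1 from 162047478 to 162097052 had 9.49 FPKM in dek2 and 1316 FPKM in WT, a log2 ratio of -7.49, and its scaled FPKM was 208-fold lower in dek2. The locus on chromosome 5 from 159722271 to 159769511 had 374 FPKM in dek2 and 1516 FPKM in WT, a log2 ratio of -2.60 and 6.10-fold lower. The next highest long locus in WT had 246 FPKM, and the highest in dek2 had 585 FPKM. These loci set the summed level of the group. The sum over all long loci was 9425 FPKM for dek2 and 8770 FPKM for WT, a ratio of 0.715 after scaling. Without both loci the sums were 9042 FPKM in dek2 and 5938 FPKM in WT, a scaled ratio of 1.01.

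The other members of the 8 lowest ratios were smaller decreases at lower levels, among the 252 loci defined above. Loci of 27.7 kb and 21.0 kb on chromosome 2 stood at 3.66 and 12.5 FPKM in dek2 where WT had 13.5 and 36.2 FPKM, with log2 ratios of -2.07 and -1.995. A locus of 36.3 kb on chromosome 5 had 9.46 FPKM in dek2 and 21.3 FPKM in WT (log2 ratio -1.61). The remaining 3, with log2 ratios between -1.47 and -1.40, passed 2-fold only through the scaling. They were a 54.4 kb locus on chromosome 1 with 46.3 FPKM in dek2 and 87.0 FPKM in WT, a 39.4 kb locus on chromosome 10 with 10.9 and 20.7 FPKM, and a 24.2 kb locus on chromosome 4 with 14.9 and 27.6 FPKM. On the deposited values their log2 ratios were -0.90, -0.87 and -0.85.

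Among the same 252 loci, the 8 highest ratios were smaller in size than the lowest one and came from loci at low or moderate levels in WT. The locus on chromosome 3 from 229475961 to 229506517 had 72.6 FPKM in dek2 and 3.79 FPKM in WT, a log2 ratio of 3.36, and its scaled FPKM was 12.8-fold higher. The locus on chromosome 5 from 214676253 to 214699598 had 10.9 FPKM in dek2 and 0.848 FPKM in WT, a log2 ratio of 2.16. In dek2 the first lay above the median of the expressed long loci, 10.7 FPKM, and the second close to it.

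The other 6 had log2 ratios between 1.31 and 1.82. On chromosome 7 a 20.3 kb locus had 124 FPKM in dek2 and 25.2 FPKM in WT, and a 30.4 kb locus had 32.7 and 6.08 FPKM. On chromosome 2 a 26.7 kb locus had 18.0 FPKM in dek2 and 2.68 FPKM in WT, and a 21.4 kb locus had 10.5 and 2.21 FPKM. A 40.5 kb locus on chromosome 1 had 18.1 FPKM in dek2 and 2.93 FPKM in WT, and a 26.3 kb locus on chromosome 9 had 36.7 and 8.71 FPKM. All 8 were also past 2-fold on the deposited values, with the other scalings and with a pseudocount of 0.1 FPKM. Leaving out the scaling or lowering the pseudocount can only raise such ratios, and the other scalings hardly moved them. These settings therefore could not undo the calls and lend them no support.

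Among the 8 most abundant long loci, 3 were past 2-fold, beside 36.3% of all rows at a mean level of 100 FPKM or more. Of the 8 with the highest mean level, 2 were the lower loci on chromosomes 1 and 5 given above, and 1 was higher. The higher one was a 22.6 kb locus on chromosome 7 with 585 FPKM in dek2 and 157 FPKM in WT (log2 ratio 1.31). The other 5 had between 185 and 464 FPKM in dek2 and between 120 and 246 FPKM in WT. Their log2 ratios were 0.32, -0.45, 0.13, 0.05 and 0.04, all under 2-fold. No direction is read from them, because the scaling turns the sign of 3: the second was 0.13 on the deposited values, and the last 2 were -0.01 and -0.02 with a scaling on the sums that leaves out the top 100 rows of either library. The first of these 5 stood out by its length. It lay on chromosome 1 from 31073181 to 31210660, a span of 137.5 kb, and had 464 FPKM in dek2 and 246 FPKM in WT. No other locus of 50 kb or more reached 100 FPKM in either library.

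The other 5 of the 6 longest expressed loci had at most 12.8 FPKM in dek2 and 16.8 FPKM in WT. The longest member, of 166.7 kb on chromosome 6, had 8.88 FPKM in dek2 and no value in WT. Loci of 130.7, 122.1 and 119.5 kb stood at 8.80, 3.36 and 1.80 FPKM in dek2 where WT had 5.38, 1.20 and 0.921 FPKM. A locus of 114.4 kb had 12.8 FPKM in dek2 and 16.8 FPKM in WT (log2 ratio -0.90). Of these 6 longest expressed loci, only the one without a value in WT was called.

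Loci without a value were nearly all at the bottom of the other library. No value was given for 27 long loci (4.28%) in dek2 and 70 (11.1%) in WT, and for 0 in both. The 27 without a value in dek2 had at most 0.486 FPKM in WT. Of the 70 without a value in WT, 3 reached 1 FPKM in dek2. These were a 24.2 kb locus on chromosome 1 with 20.8 FPKM, the 166.7 kb locus with 8.88 FPKM, and a locus with 1.05 FPKM. The first 2 are among the 26 counted as higher, and no fold is given for them, because an absent transcript and a failed estimate would look alike.

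A larger share of the long loci than of shorter loci lay in the inner parts of the chromosomes, a difference with no test here. Place was measured as a share of the last listed coordinate of each chromosome. Between 20% and 60% of that length, limits chosen after the values were seen, lay 211 of 631 long loci (33.4%), against 24.4% of all distinct loci, 21.5% of loci of 5 to 20 kb and 28.3% of compact loci. The share grew with span, from 26.8% at 20 to 30 kb through 37.2% and 51.9% to 61.5% (8 of 13) at 100 kb or more. Long loci also stood further from their neighbours. Their median distance to the next listed locus was 36.3 kb on the left and 36.8 kb on the right, against 20.1 kb on either side over all distinct loci. Within a window of 1 Mb they had a median of 18 other loci, against 23 for all. A long locus fills part of its own window, at the median 27.8 kb of 1 Mb, which can lower its count. How much this adds to the difference was not tested.

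**Figure D5:**
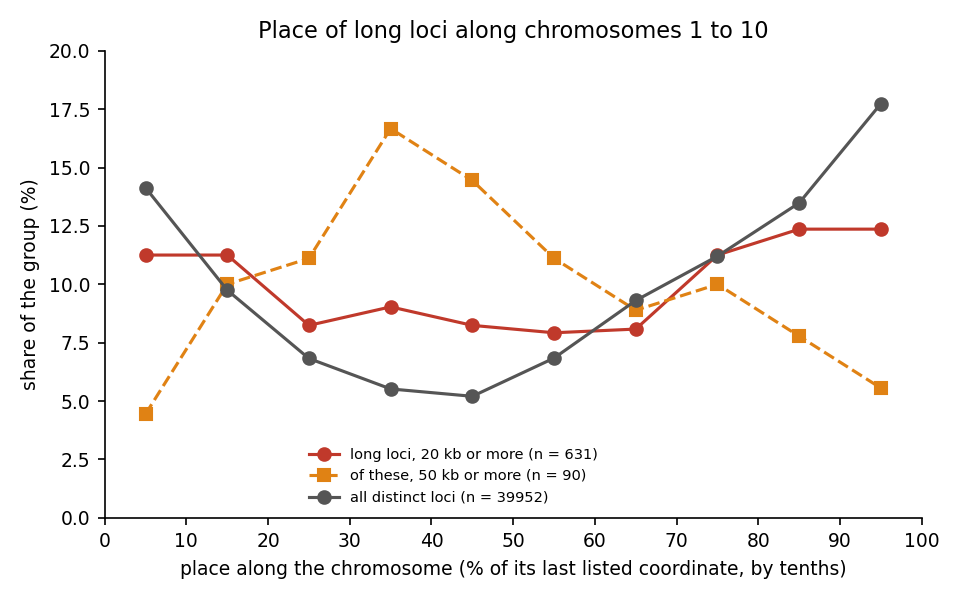
Share of long loci (red), of long loci of 50 kb or more (orange) and of all distinct loci (grey) in steps of 10% of the chromosome length, chromosomes 1 to 10 together. From 30% to 40% lie 9.03% of the long loci and 16.7% of those of 50 kb or more, against 5.52% of all distinct loci.

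The ratios of long loci inside and outside these limits were much alike. Inside the limits of 20% and 60%, 16 of 139 expressed long loci (11.5%) were past 2-fold, and outside them 43 of 307 (14.0%). The median log2 ratio was 0.04 inside and 0.05 outside. The share expressed was 65.9% inside and 73.1% outside. By chromosome, long loci made up between 1.25% of the distinct loci on chromosome 8 and 1.79% on chromosome 4. The median log2 ratio lay between -0.10 on chromosome 7 and 0.18 on chromosome 8. Chromosome 1 held 9 of the 33 lower loci and 5 of the 26 higher ones. These were 11.5% and 6.41% of its 78 expressed members, beside 12.0% and 13.2% of all expressed rows. The largest share lower was on chromosome 5, with 5 of 36 (13.9%), and chromosome 10 held 2 lower and 0 higher among 35.

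Some of the lower loci had a lower neighbour. The next locus to the left of the chromosome 1 locus, 39.8 kb away and 726 bp long, had 27.1 FPKM in dek2 and 2739 FPKM in WT (log2 ratio -7.17). The next locus to the right of the chromosome 5 locus, 27.1 kb away and 939 bp long, had 433 FPKM in dek2 and 684 FPKM in WT (log2 ratio -1.24). The 21.0 kb locus on chromosome 2 had a neighbour 4.59 kb away with 8.20 FPKM in dek2 and 31.3 FPKM in WT (log2 ratio -2.32). In these 3 cases the neighbour was past 2-fold in the same direction, for the chromosome 5 one only through the scaling (-0.66 on the deposited values), while the neighbour on the other side was below 1 FPKM in both libraries.

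The 39.4 kb locus on chromosome 10 was lower together with the next locus on each side, 0.719 kb away at a log2 ratio of -2.19 and 198 kb away at -1.41. The locus itself and the further neighbour passed 2-fold only through the scaling, with -0.87 for each on the deposited values. Neighbours of higher loci went both ways. The chromosome 3 locus lay between a neighbour 1.15 kb away at a log2 ratio of 0.95 and one 0.745 kb away at -1.13. The 30.4 kb locus on chromosome 7 had a higher neighbour 86.5 kb away (log2 ratio 1.97), and the 40.5 kb locus on chromosome 1 had one 8.02 kb away (log2 ratio 1.23). Over all called long loci, the nearest expressed locus with a coordinate of its own was higher as well for 6 of 26 higher loci (23.1%) and lower as well for 7 of 33 lower loci (21.2%). Of all 21628 expressed loci with their own coordinate, 13.2% were higher and 11.5% lower. With so few loci these shares are a description, and whether neighbours share reads was not tested.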

How the data were processed

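RNA from endosperm of 1 dek2 sample and 1 WT sample was sequenced. The authors deposited 1 FPKM value per row, per the file headers, and rows are identified by coordinate only. Bowtie 0.12.2 was used, per the submitters' processing notes. Not given in the sources used here are the build, the annotation, any pooling and which program made the FPKM. Coordinates are printed as deposited. None of the starts of the 631 long loci equalled a gene start in the reference gene table at hand (0 matches), whose build differs, so no gene was named and no sequence is shown.

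Both tables listed the same coordinates in the same order and were paired line by line. The members, classes and comparisons were chosen with earlier results of these data known. Named loci were the 8 highest and 8 lowest log2 ratios at 10 FPKM or more with a value in both, the 8 most abundant, the 6 longest expressed, those at 10 FPKM or more in 1 library with no value in the other, and those next to the 20 kb limit. Absolute depth is unknown. From steps in 2807 rows of low values, the mapped total of dek2 was estimated at 1.06 times that of WT. This estimate could not be checked against fragment counts. The calculation was tested on simulated data. Python 3.11.15, numpy 2.4.6, pandas 2.3.3 and scipy 1.17.1 were used. Alternatives for scaling, pseudocount, filter, fold, span limit and shared coordinates were run.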

Additional observations from a re-analysis of the deposited data

How the results depend on the processing

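With n = 1 per genotype no replicate could be left out. No paired analysis was possible because each genotype has 1 sample with no replicate number. On the deposited values without scaling, 94 long loci were higher in dek2 and 13 lower, against 26 and 33, and the median log2 ratio was 0.54, by construction of the shift. A pseudocount of 0.1 FPKM gave 47 higher and 51 lower, and a 3-fold threshold 11 and 9. A limit of 15 kb gave 52 higher, and one of 30 kb gave 10 higher and 14 lower, from more loci in the first case and fewer in the second. With shared coordinates 72 were higher and 87 lower, and their shares of the expressed loci were also larger, 8.25% and 9.97% against 5.83% and 7.40%. With a limit of 30 kb, 58.4% were at 1 FPKM or more in dek2 and 57.6% in WT. No value in WT was given for 8.49% at 15 kb, 14.9% at 30 kb and 13.9% with shared coordinates, against 11.1%. The summed scaled ratio of 0.715 was 0.830 without the most abundant locus and 1.01 without the 2 most abundant, settings added after the data were seen. All other alternatives for these results stayed within 1.5 times for counts, 0.1 for the median and the binomial interval for shares. That interval treats the loci of a library as independent, and the alternative sets share members. It only sets a limit on size and is no measure of error. Of 30 named loci, 0 called ones changed sign, and 3 lost the call on the deposited values. No setting could turn the sign of a called locus, because the scalings shift a log2 ratio by at most 0.59. The absence of sign changes is thus no support. The share past 2-fold stayed below that of compact loci and of all rows under each of the 8 alternatives that kept the members, but not below that of loci of 5 to 20 kb with a 3-fold threshold (4.48% against 3.81%). Low values rest on an unknown number of fragments, so rows under 1 FPKM are given without a direction.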

Other observations

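Rows of 20 kb or more at shared coordinates were more often past 2-fold than long loci with a row of their own, with no test of that difference. The 646 such rows had medians of 2.75 FPKM in dek2 and 1.90 FPKM in WT. Of 427 expressed ones, 46 (10.8%) were at least 2-fold higher and 54 (12.6%) lower in dek2, against 13.2% and 12.0% of all expressed rows. Among the 10 at a mean level of 100 FPKM or more, 6 were lower, beside 18.3% of all rows at that level. Rows of 1 coordinate share 1 interval, so the 10 may not be separate loci. What sets such rows apart is not given. Their sum was 8197 FPKM for dek2 and 35436 FPKM for WT. How the authors divided fragments between rows of 1 coordinate is not known here.

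Long loci were also grouped by how crowded their surroundings were. The 235 with 1 to 14 other loci within 1 Mb had medians of 4.34 FPKM in dek2 and 3.25 FPKM in WT, and 16 of 158 expressed ones (10.1%) were past 2-fold. The 185 with 15 to 23 other loci had medians of 4.44 FPKM in dek2 and 3.04 FPKM in WT, and 20 of 130 (15.4%) were past 2-fold. The 211 with 24 to 57 other loci had medians of 7.17 FPKM in dek2 and 3.79 FPKM in WT, and 23 of 158 (14.6%) were past 2-fold. Of all expressed rows, 25.2% were past 2-fold. These shares were not tested against each other.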
